A study of Mus musculus with 16 samples.

Results

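Hemogenic endothelium is endothelium from which blood cells arise. In cultures of differentiating mouse embryonic stem (ES) cells, a mesodermal cell carrying the receptor Flk1 forms adherent endothelium, which then loses its vascular character, gains blood markers and releases hematopoietic progenitors. The endothelial stage therefore lies between a precursor and a product that are not endothelial. Genes were sought whose level in the first sorted stage of this endothelium, HE1, lay above, or below, both the Flk+ cells and the progenitors. Each member had to differ from both populations at least 2-fold and with a Benjamini-Hochberg adjusted p of 0.05 or less in limma, taking the larger of the 2 p-values. Of 36818 genes tested, 680 (1.85%) were above both populations in HE1 and 176 (0.478%) were below both. Scaled from the scanner's own processed signal, the same rule gave 384 above and 203 below, a more even split.

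The choice used 6 of the 16 arrays of the series, all from Sp1 +/+ wild-type cells: 2 of Flk+ cells, 2 of HE1 and 2 of progenitors. The cells are labelled E14, a mouse ES cell line, with the strain given as C57BL/6, and Sp1 is a transcription factor that binds GC-rich promoters. Flk+ cells were enriched from embryoid bodies by their surface Flk1. The other populations were sorted from blast cultures grown from those cells: HE1 as KIT+ Tie2+ CD41-, a second stage HE2 as KIT+ Tie2+ CD41+, and progenitors as KIT+ Tie2- CD41+. Adherent and floating cells were combined before sorting. By the study's methods HE1, HE2 and progenitors were gates of the same day 2 blast cultures, not successive time points. The embryoid bodies grew in another medium, so culture and population cannot be told apart in the differences from Flk+ cells. The other 10 arrays were 2 of Sp1 +/+ HE2 and 8 of the same populations from Sp1-/- cells, which came from 1 ES cell line in which Sp1 lacks its DNA-binding domain. Each genotype had a slide of its own. The series record calls the arrays biological replicates, while a legend of the study mentions averaging of technical ones, so each p-value measures the spread between these arrays, which may be technical.

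Replicate arrays correlated at 0.994 to 0.997, and 67% to 72.4% of probes were well above background on an array. No spot was saturated. The probe for Sp1 itself gave log2 intensities of 12.14 to 12.56 on the 8 Sp1 +/+ arrays and 9.03 to 10.29 on the 6 Sp1-/- arrays of Flk+, HE1 and progenitor cells, so the labels and the targeted gene went together. Where the probe lies relative to the deleted part is not given in the sources used here.

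The label of HE1 as endothelium was set beside a marker list. Cdh5 encodes VE-cadherin, the adhesion molecule of the endothelial junction. Its log2 intensity was 9.04 and 10.23 on the Flk+ arrays, 15.16 and 14.93 on the HE1 arrays, and 12.29 and 11.23 on the progenitor arrays. HE1 was thus 42.5-fold above Flk+ cells and 9.75-fold above progenitors (adjusted p = 0.0174). Of 10 endothelial markers, 7 were members of the set above both, where 1.85% of all genes were. This count uses the same arrays and rule as the set, so it is no independent check of the label. The other 3, Tie1, Sox17 and Erg, were also higher in HE1 than in both populations, with adjusted p-values of 0.0797, 0.08 and 0.104. The genes behind the sort are no finding. Tek, which encodes Tie2, was a member, and Kdr, Kit and Itga2b, which encode Flk1, KIT and CD41, were not. Since HE1 and progenitors were separated by Tie2 and CD41, the endothelial list and the blood lists describe populations chosen with an endothelial and a blood marker.

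**Figure D1:**
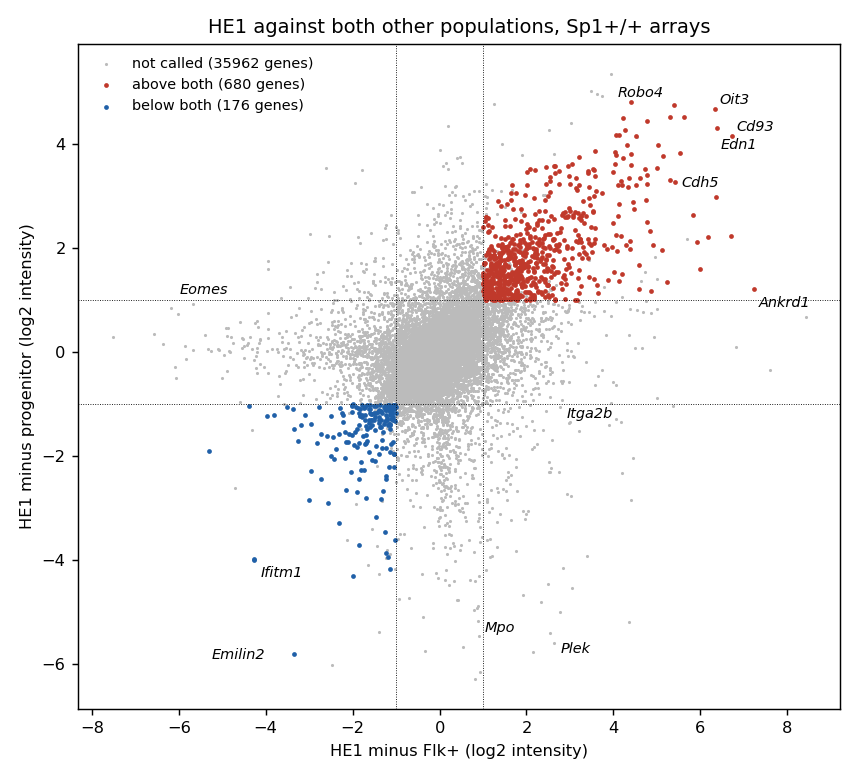
Each point is 1 of 36818 genes in Sp1 +/+ cells, with the mean log2 difference of HE1 from Flk+ cells on the x axis and from progenitors on the y axis (2 arrays per population). Red points are the 680 genes above both, blue points the 176 below both and grey points all others, with dotted lines at a 2-fold difference. Cdh5, Robo4, Cd93 and Edn1 lie far into the upper right, Ifitm1 and Emilin2 into the lower left, while Mpo and Plek lie low against progenitors and Eomes low against Flk+ cells.

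To show what regulatory sequence lies at some of these genes, the 250 bases before the start site are printed for the first 3 genes above both in order of the smaller difference, and the first below both, that had a single promoter entry in RefSeq (build GRCm38.p6). Robo4 is at chr9:37401722-37401971 on the plus strand, Edn1 at chr13:42301226-42301475 on the plus strand, Ushbp1 at chr8:71395802-71396051 on the minus strand and Ifitm1 at chr7:140967826-140968075 on the plus strand. Capitals mark matches on either strand to short motifs of 9 factor families. For ETS factors the letters searched were CGGAAG, and those of SOX factors were ACAAT. RUNX factors were searched as TGTGGT and GATA factors as AGATAA. For the GC box, which Sp1 family members bind, the letters were GGGCGG, and TEAD factors, the partners of YAP, were given GGAATG. AP-1 was searched as TGACTCA, the Notch effector RBPJ as GTGGGAA and forkhead factors as TGTTTAC.
Robo4: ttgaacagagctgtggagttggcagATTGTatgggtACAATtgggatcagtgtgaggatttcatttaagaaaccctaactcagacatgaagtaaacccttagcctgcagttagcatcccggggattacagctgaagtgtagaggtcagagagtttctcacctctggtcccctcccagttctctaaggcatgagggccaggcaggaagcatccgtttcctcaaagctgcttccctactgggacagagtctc
Edn1: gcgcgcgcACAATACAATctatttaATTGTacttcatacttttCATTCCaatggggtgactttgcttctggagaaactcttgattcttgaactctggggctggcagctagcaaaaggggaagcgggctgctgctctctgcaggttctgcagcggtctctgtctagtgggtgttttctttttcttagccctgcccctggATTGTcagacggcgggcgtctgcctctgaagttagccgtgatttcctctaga
Ushbp1: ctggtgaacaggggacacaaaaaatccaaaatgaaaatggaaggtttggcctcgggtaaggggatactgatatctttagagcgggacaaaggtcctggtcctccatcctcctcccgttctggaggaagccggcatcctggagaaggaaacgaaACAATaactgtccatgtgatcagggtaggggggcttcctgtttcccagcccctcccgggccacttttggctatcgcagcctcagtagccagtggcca
Ifitm1: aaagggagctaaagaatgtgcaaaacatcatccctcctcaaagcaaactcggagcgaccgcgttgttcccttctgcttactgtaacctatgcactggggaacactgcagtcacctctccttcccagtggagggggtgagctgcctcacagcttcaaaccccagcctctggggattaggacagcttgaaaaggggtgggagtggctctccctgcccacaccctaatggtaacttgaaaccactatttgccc
The SOX letters occur 2 times before Robo4, 4 times before Edn1 and 1 time before Ushbp1, and the TEAD letters 1 time before Edn1. In Edn1 2 of the SOX matches lie side by side. None of the 9 motifs has its letters in the Ifitm1 window. Over windows that also take in the 50 bases after the start, the TEAD letters occur in 13.1% of the 15859 promoters of tested genes and the SOX letters in 26.6%. Of the 438 promoters matched to members above both, 20.3% hold the SOX letters, so the printed windows do not stand for the set. These 438 are 75.8% of the 578 members with a symbol, which is too few for a comparison of motif or GC shares over the set.

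The 680 genes above both ranged from the 2-fold threshold, a log2 difference of 1, to far beyond it. The smaller of a gene's differences had a median of 1.5 on the log2 scale and reached 4.76. From both populations 182 genes differed at least 4-fold and 54 at least 8-fold. For 428 genes the larger difference was that from Flk+ cells. Of these 680, 578 had a gene symbol. Both HE1 arrays exceeded all 4 other arrays for 679 of them, a pattern that 5472 of all genes tested also had, so the separation of the arrays alone does not define the set. The median level of the members was 8.88 in Flk+ cells, 11.3 in HE1 and 9.31 in progenitors. All 680 were well above background on both HE1 arrays, whereas 33 were not on either Flk+ array, 5 were not on either progenitor array and 3 were not on any of these 4. In arrays of whole populations, fewer cells of a type and less RNA per cell cannot be told apart. The 680 genes were 39.6% of the 1718 genes above Flk+ cells in HE1 (4.67% of those tested) and 45.9% of the 1482 above progenitors (4.03%).

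Several of the genes at the top of the set are known from endothelium. Robo4, a guidance receptor of endothelium, had log2 intensities of 8.17 and 7.62 in Flk+ cells, 12.94 and 13.64 in HE1, and 9.53 and 7.52 in progenitors. It was 42.1-fold above Flk+ cells and 27.2-fold above progenitors, with a standard error of 0.64 on the log2 scale and an adjusted p of 0.0149. Oit3, a secreted zona pellucida domain protein, was at 7.28 and 8.03, then 14.18 and 13.8, then 10.65 and 7.97. HE1 did not overlap with either population for these genes, while the Flk+ and progenitor arrays overlapped and the progenitor arrays lay far apart from each other.

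Cd93, a receptor of endothelial and early blood cells, was at 7.53 and 8.46 in Flk+ cells, 14.59 and 14.88 in HE1, and 11.41 and 9.74 in progenitors. Its level in HE1 was 107-fold above Flk+ cells and 17.9-fold above progenitors (adjusted p = 0.0152). Edn1 encodes endothelin-1, the vasoconstrictor peptide secreted by endothelium. It was at 6.57 and 6.64 in Flk+ cells, 12.81 and 13.14 in HE1, and 9.62 and 7.7 in progenitors, a difference of 82.9-fold from the first and 19.9-fold from the second (adjusted p = 0.0144). Icam2, an adhesion molecule that binds leukocyte integrins, was at 9.37 and 10.68, then 15.32 and 15.34, then 11.98 and 9.62. The HE1 arrays of these genes stood apart from the other 4 by the choice, and the progenitor arrays lay above or among the Flk+ arrays.

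For the next genes in order HE1 stood above the other 4 arrays, again by the choice. Tmem204, an endothelial transmembrane protein, differed by 5.63 from Flk+ cells and by 4.54 from progenitors on the log2 scale, and Mmrn2, a matrix protein of vessels, by 4.78 and 4.44. Ptprb, the phosphatase that acts on Tie2 and VE-cadherin, differed by 4.39 and 4.81, with the second progenitor array at 8.27 below both Flk+ arrays at 9.56 and 10.22. Adcy4, an adenylyl cyclase, differed by 4.12 and 4.17, and Bmp6, a BMP ligand, by 4.05 and 4.18. Ushbp1, Ucn, Tcim and Dysf completed the set of genes with the largest smaller difference, with Ucn, the stress peptide urocortin, nearest to the threshold at an adjusted p of 0.0472. Pcdh17, a protocadherin, was not well above background on either Flk+ array and was at least 32.6-fold higher in HE1, and 15.9-fold higher than in progenitors.

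**Figure D2:**
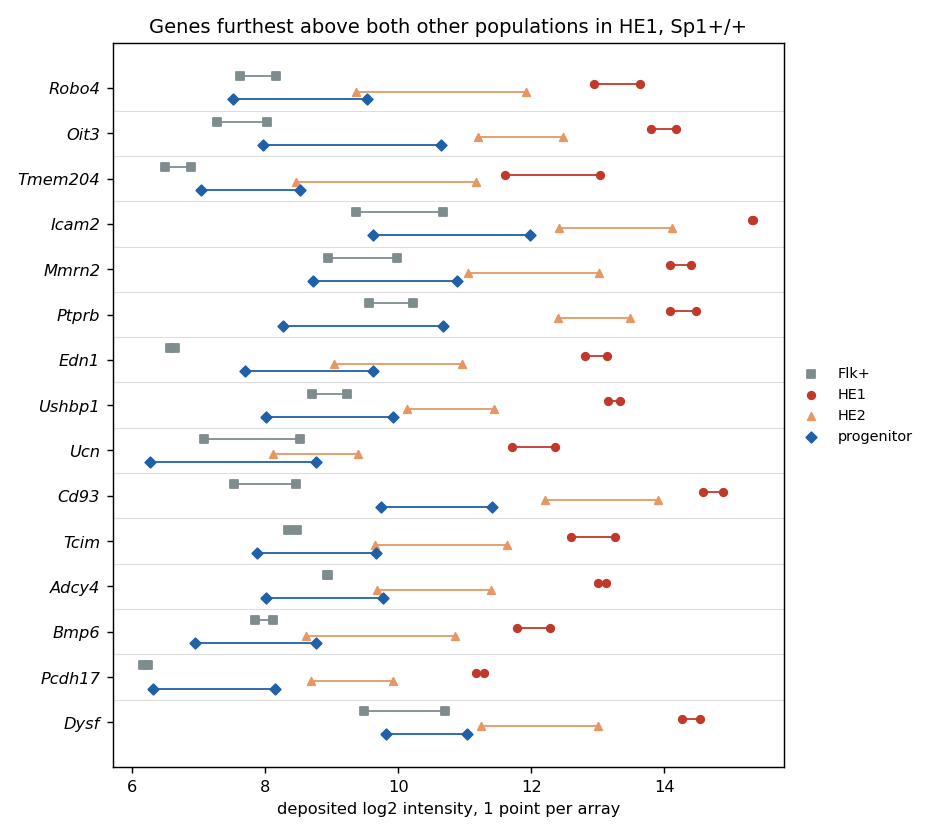
Deposited log2 intensity is on the x axis for the 15 genes above both with the largest smaller difference, with genes in rows. Each point is 1 array of Sp1 +/+ Flk+, HE1, HE2 or progenitor cells (2 arrays each). Both HE1 points of each gene lie right of all Flk+ and progenitor points, a condition of the choice. The HE2 and progenitor pairs are spread more widely than the HE1 pairs of most of the genes.

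The members were then counted in lists ordered by role, each to be read against the 1.85% of all genes that were above both. The lists hold only genes with a symbol, of which 578 of 19992 were above both, a higher share. The counts use the same arrays and rule as the set, and the lists were written with earlier results of these data known. They therefore describe the set and are no independent check of it. Of 30 genes of endothelial junction and adhesion, 12 (40%) were above both and 0 below both, with list medians of 1.00 against Flk+ cells and 1.42 against progenitors. Over all genes tested these medians were -0.015 and -0.005. The 12 were Cdh5, Pecam1, Esam, Cldn5, F11r, Icam1, Icam2, Emcn, Gja4, Ocln, Amotl2 and Ptprm. Gja4, a connexin of arterial gap junctions, was at 9.19 and 10.61 in Flk+ cells, 14.00 and 14.25 in HE1, and 10.95 and 9.83 in progenitors. Cldn5, the tight junction claudin of endothelium, was at 7.51 and 8.37, then 11.24 and 11.78, then 8.19 and 7.07. Emcn, a sialomucin of capillaries and veins, was not well above background in Flk+ cells and was at least 9.92-fold higher in HE1. The other 18 genes of the list did not pass.

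Receptors of endothelium, through which it senses growth factors and its surroundings, followed. Of 34 receptor genes, 17 (50%) were above both and 0 below both, with medians of 2.53 and 2.15. The members were the VEGF receptors Flt1 and Flt4, the BMP receptor Acvrl1 and its partner Eng, Robo4, Plxnd1, S1pr1, Calcrl, Cd93, Clec14a, Ptprb, Thbd, Procr, Adgrf5, Adgrl4, Lyve1 and Stab1. Stab1, a scavenger receptor of sinusoids, was at 6.31 and 7.21 in Flk+ cells, 11.77 and 12.04 in HE1, and 8.67 and 7.57 in progenitors. Thbd, the thrombin receptor thrombomodulin, was at 6.51 and 7.71, then 11.9 and 11.55, then 9.07 and 7.66. Kdr, the main VEGF receptor and the gene of the first sort, was 0.48 above Flk+ cells and 2.42 above progenitors and did not pass against the former.

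Secreted factors and basement membrane came next, with 20 of 42 genes (47.6%) above both, 0 below both and medians of 1.78 and 1.61. Both chains of type IV collagen, the core of the basement membrane, were members. Col4a1 was at 12.7 and 12.78 in Flk+ cells, 15.47 and 15.92 in HE1, and 12.59 and 11.63 in progenitors, so the HE1 arrays stood about as far from both groups. Col4a2 differed by 2.97 from Flk+ cells and by 3.38 from progenitors (adjusted p = 0.00828). Col18a1, Lamb2, Nid1, Hspg2, Sparc and Sparcl1 were the other matrix members. Pdgfb, which recruits pericytes, differed by 3.55 and 3, and Igf2, the fetal growth factor, by 2.75 and 3.25 (adjusted p = 0.0185). Further members were Mmrn2, Egfl7, Angpt2, Edn1, Vegfa, Ccn1, Ccn2, Plat and Timp3.

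Inside the cell, regulators of small GTPases and of the cytoskeleton gave 13 of 29 above both (44.8%) and 0 below both, with medians of 2.04 and 1.37. Rasip1, a Rap effector needed for vessel lumens, was at 11.59 and 12.43 in Flk+ cells, 15.54 and 15.58 in HE1, and 12.66 and 11.44 in progenitors. Rasgrp3, an exchange factor for Ras and Rap, differed by 4.04 and 3.85 (adjusted p = 0.00992). Arhgap29, Dock6, Arap3, Rhob, Rhoj, Cdc42ep1, Cnn2, Palld, Cav1, Cav2 and Tspan18 were the other members.

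Of the targets of YAP and serum response factor, which answer to tension and spreading, 7 of 26 (26.9%) were above both and 1 was below both. Ankrd1, a classic target of both, was at 6.42 and 6.24 in Flk+ cells, 13.17 and 13.97 in HE1, and 12.38 and 12.32 in progenitors. It was 151-fold above the first and 2.33-fold above the second (adjusted p = 0.0488), so the difference from progenitors was far smaller than that from Flk+ cells. Atf3, an immediate early factor, differed by 3.46 and 2.83, Ccn1 by 2.98 and 1.64, and Ccn2 by 4.08 and 1.95. Amotl2, Lats2 and Dusp1 were the others. Egr2 was below both, by 1.05 and 1.04 (adjusted p = 0.048).

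Transcription factors of endothelium and hemogenic endothelium gave 12 of 40 above both (30%) and 0 below both, with medians of 1.03 and 0.85. Sox18, which specifies arteries and lymphatic vessels, was at 8.64 and 9.65 in Flk+ cells, 13.63 and 13.45 in HE1, and 10.44 and 9.44 in progenitors. Klf2, the flow-responsive factor of endothelium, was at 7.98 and 8.22, then 14.27 and 13.59, then 11.85 and 10.72. Nr2f2, a venous factor, differed by 2.09 and 1.76 (adjusted p = 0.00994). Ets1, Ets2, Elk3, Mecom, Foxc2, Klf4, Klf6, Tcf4 and Nfatc1 were the other members. Runx1 and Gata2 were not among them. Runx1, required for the step from endothelium to blood, was at 10.7 and 11.28 in Flk+ cells, 10.03 and 9.08 in HE1, and 13.16 and 13.41 in progenitors, and its lower level against both missed the threshold (adjusted p = 0.0726). Gata2 was at 13.1 and 13.3, then 12.21 and 12.46, then 11.18 and 11.07, a stepwise order rather than a peak.

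Signalling pathways that pattern endothelium contributed few members. In the Notch pathway 3 of 29 genes (10.3%) were above both, Notch4, Jag2 and Dll4, with medians of 0.035 and 0.565. Notch4, the receptor most restricted to endothelium, was at 8.58 and 8.59 in Flk+ cells, 11.31 and 11.95 in HE1, and 8.51 and 7.51 in progenitors. Dll4, the arterial ligand, was at 6.71 and 6.59, then 7.51 and 8.05, then 6.62 and 6.31, a difference of 1.13 and 1.31 (adjusted p = 0.0309). In the BMP and TGF-beta pathway 2 of 31 genes (6.45%), Bmp6 and the receptor Tgfbr2, were above both. Some endothelial genes with large differences did not pass the test. Nos3, the endothelial nitric oxide synthase, differed by 3.63 and 4.97 (adjusted p = 0.0589) and Ramp2, the partner of Calcrl, by 3.48 and 5.03 (adjusted p = 0.126).

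**Figure D3:**
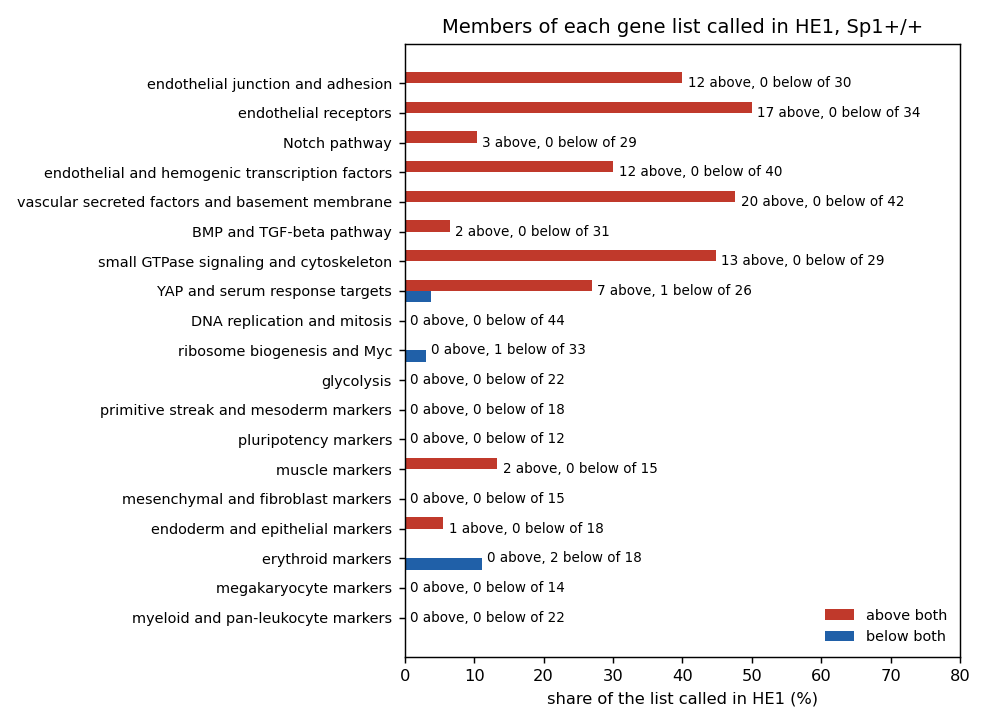
Share of the genes of each list that were above both (red) or below both (blue) other populations in Sp1 +/+ HE1, in percent, with the counts printed beside the bars. The receptor, secreted, small GTPase and junction lists reach 40% to 50% above both, against 1.85% of all genes tested and 578 of the 19992 with a symbol. The counts use the same arrays and rule as the set. The replication, glycolysis, mesoderm, pluripotency, mesenchymal, megakaryocyte and myeloid lists have no member in either direction. At the share of all genes, lists of this size may also have none.

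The housekeeping lists had almost no members. At the shares of all genes, 1.85% above both and 0.478% below both, lists of this size would also hold few or none. Of 44 genes of DNA replication and mitosis, 0 passed in limma in either direction, against 1 above and 0 below at an unadjusted p under 0.05, and the medians were -0.43 and -0.39. Of 33 genes of ribosome biogenesis, 1 was below both, Wdr12, a processing factor of the large ribosomal subunit (by 1.29 and 1.38, adjusted p = 0.00828). Of 22 glycolysis genes, 0 passed in either direction, also at an unadjusted p under 0.05. Against Flk+ cells alone, 14 ribosome genes and 7 glycolysis genes were lower in HE1, where 3.97% of all genes were.

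Below both were 176 genes, 141 of them with a symbol. The smaller difference had a median of -1.22, with 13 genes at least 4-fold and 3 at least 8-fold below both. Their median level was 10.6 in Flk+ cells, 8.62 in HE1 and 10.3 in progenitors. Of these, 166 were well above background on both HE1 arrays and 2 on neither.

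Ifitm1, an interferon-induced membrane protein also known from early mesoderm, was the lowest with a symbol. It was at 15.61 and 15.2 in Flk+ cells, 11.8 and 10.49 in HE1, and 14.89 and 15.36 in progenitors, 19.2-fold and 15.8-fold below them (adjusted p = 0.00996). Emilin2, a matrix glycoprotein, was at 11.06 and 10.53, then 8.13 and 6.75, then 13.05 and 13.45. Usp18, the enzyme that removes the interferon-induced modifier ISG15, was at 9.48 and 8.82, then 6.6 and 6.57, then 9.28 and 9.68. By the choice, HE1 overlapped with neither population in these genes. The Flk+ and progenitor arrays overlapped for Ifitm1 and Usp18, and the HE1 arrays of Ifitm1 and Emilin2 differed by more than 1 from each other.

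Plppr3, a phospholipid phosphatase-related membrane protein, was below by 3.01 and 2.84. Pygl, the glycogen phosphorylase of liver type, was below by 2.33 and 3.29, Grtp1 by 2.74 and 2.45, and Adssl1, which acts in purine synthesis in muscle, by 2.96 and 2.29. Homer2, a scaffold protein, was below by 2.42 and 2.06, and Ccdc92b by 2.15 and 2.66. The other probe of Homer2 differed by only 0.02 and 0.125 and that of Plppr3 by 0.055 and 0.06, so these calls hold for 1 probe each, and Homer2 lost its call with the mean over its probes (-0.968). Ccnb1ip1, a ubiquitin ligase known from meiosis, was not well above background in HE1 and was at least 4.3-fold lower than in Flk+ cells and at least 3.93-fold lower than in progenitors. Of the erythroid list, 2 of 18 genes were below both, where 0.478% of all genes were. They were Tfrc, the transferrin receptor that imports iron, by 2.14 and 1.73, and Car2, a carbonic anhydrase, by 1.48 and 2.10.

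**Figure D4:**
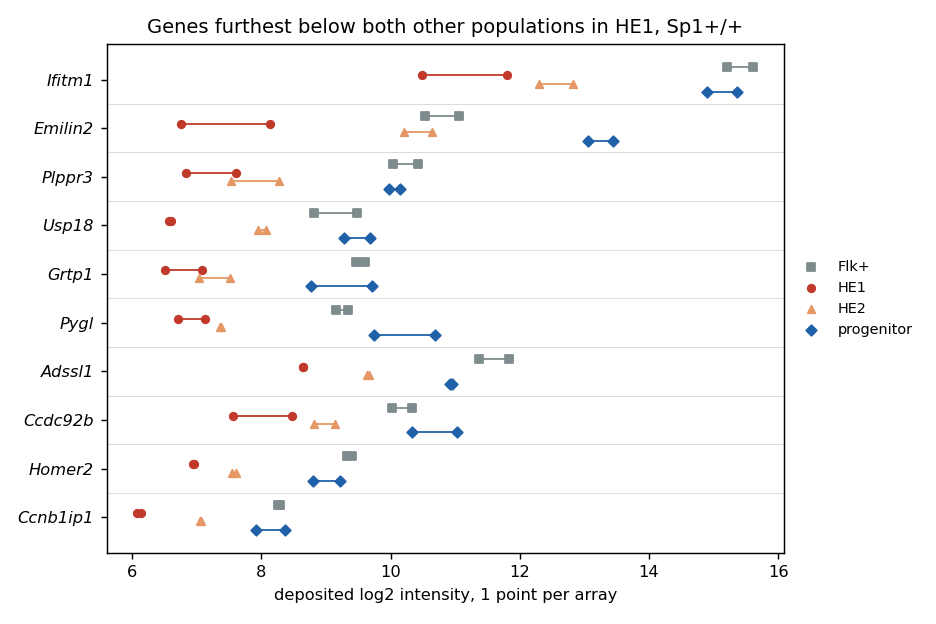
Deposited log2 intensity is on the x axis for the 10 genes below both with the largest smaller difference, with genes in rows. Each point is 1 array of Sp1 +/+ Flk+, HE1, HE2 or progenitor cells (2 arrays each). Both HE1 points of each gene lie left of all Flk+ and progenitor points, a condition of the choice. For Ifitm1 and Emilin2 the HE1 pair itself is spread by more than 1.

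Markers of other cells moved between arrays as well as between populations. The erythroid list had a mean log2 intensity of 10.2 on the first HE1 array and 8.6 on the second, against 11.9 and 12.9 in progenitors and 9 and 9.28 in Flk+ cells. The myeloid list was at 8.69 and 8.23 in HE1, 11.2 and 11.4 in progenitors and 7.95 and 8.22 in Flk+ cells, with 19 of 22 genes lower in HE1 than in progenitors, where 2.62% of all genes were. Of 14 megakaryocyte genes 10 were lower than in progenitors. Mpo, the granule enzyme of myeloid cells, was at 10.44 and 9.01 in HE1 and 15.13 and 14.67 in progenitors. The mesoderm list was at 11.4 and 10.7 in Flk+ cells and 7.62 and 7.54 in HE1. Of its 18 genes, 15 were lower in HE1 than in Flk+ cells, where 3.97% of all genes were. In HE1 5 of the 18 were not well above background. Of the mesenchymal list 0 of 15 genes passed, also at an unadjusted p under 0.05. A list of this size may also hold none at the share of all genes. Its mean was 9.05 and 8.35 in HE1, 8.15 and 8.35 in Flk+ cells, and 8.76 and 8.35 in progenitors. Against Flk+ cells alone 5 mesenchymal genes were higher in HE1 and 1 lower, where 4.67% and 3.97% of all genes were. In the Sp1-/- arrays 5 were above both, where 2.34% of all genes were. Of the muscle list, 2 of 15 were above both, where 1.85% of all genes were: Tnnt2, cardiac troponin T, by 3.58 and 2.40, and Nkx2-5, the cardiac homeobox factor, by 2.08 and 3.53. The muscle list medians were 1.27 against Flk+ cells and -0.01 against progenitors. Against Flk+ cells 7 muscle genes were higher in HE1 and 3 lower, where 4.67% and 3.97% of all genes were. Foxa2, an endoderm factor, was 1 of 18 in its list, by 1.98 and 1.69, where the list medians were -0.108 and 0.0434. Of that list, 3 genes were higher and 1 lower in HE1 than in Flk+ cells, and 6 were higher and 1 lower than in progenitors. Of all genes, 4.03% were higher and 2.62% lower in HE1 than in progenitors. The part of cells of other types in the members' differences was not tested.

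The replicate arrays deviated together over the members. Of the 680 genes above both, 616 were higher on the first progenitor array than on the second, and 652 were higher on the second HE2 array than on the first, by a median of 0.32 and 0.545. The endothelial receptor list showed it at 10.4 and 9.64 in progenitors and 10.8 and 11.5 in HE2, where the erythroid list ran the opposite way at 11.9 and 12.9 and at 11.1 and 10.2. HE1 held no such shift in receptors, at 12.1 and 12.2. Of the 176 genes below both, 147 were higher on the second progenitor array and 123 on the first HE1 array. The calls rested on certain arrays. Without the second HE1 array no gene passed in either direction (smallest adjusted p = 0.0531), while 595 of the 680 and 141 of the 176 still differed at least 2-fold on the same side. An unadjusted p under 0.05 with a 2-fold difference then gave 730 genes above both and 216 below both, against 757 and 220 with all arrays. Without the second progenitor array 368 genes were above both and 67 below both, and the members above both numbered 5 in the junction list, 9 among receptors, 13 among secreted factors, 8 among small GTPase regulators, 5 among transcription factors and 3 among YAP targets. Without the first HE1 array these counts were 6, 8, 13, 6, 5 and 6, and with the scanner's processed signal they were 4, 4, 7, 6, 4 and 5. The transcription factors numbered 7 without either Flk+ array, and the secreted factors 13 without the first. Without the second HE1 array each of these lists had 0, in limma at an adjusted p of 0.05.

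At the threshold itself, Tnfrsf12a, Armcx1, Samd12 and C1qtnf6 lay just inside with a smaller difference of 1, and Dpysl2, Capn2 and Phldb1 just outside with 0.995. Below both, Wnt2 was just inside at -1.01 and Umps, Map3k6 and Nr3c1 were just outside at -0.99. Measured against the mean of both populations instead, 1315 genes (3.57%) were higher in HE1 and 851 (2.31%) lower. Of these, 635 and 675 did not lie beyond both populations by the rule. Further probes of the same genes gave a check within the array: 236 of the 255 other probes of members above both (92.5%) and 71 of the 88 of members below both (80.7%) lay on the same side of both populations.

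HE2, the next stage, was not used to choose the members. Among the 680 genes above both, 290 (42.6%) were lower in HE2 than in HE1 and 1 was higher, where 1.76% of all genes were lower and 1% were higher. The choice and this comparison share the HE1, Flk+ and progenitor arrays, and the choice took genes extreme in HE1, so the direction of these differences is given as a description. For 639 genes the HE2 mean lay between the HE1 and progenitor means. The median level was 9.99 in HE2. The medians of the differences gene by gene were -1.1 from HE1, 0.665 from progenitors and 0.835 from Flk+ cells. Against Flk+ cells 244 were higher in HE2 (3.79% of all genes) and against progenitors 21 were (0.141%). Robo4 was at 9.36 and 11.92 in HE2, between HE1 and progenitors on 1 array and close to progenitors on the other. Cdh5 was at 13.27 and 14.26 and its difference from HE1 (-1.28, adjusted p = 0.203) did not pass the test. Lyve1, the hyaluronan receptor of lymphatic and early yolk sac endothelium, was the gene that was higher in HE2, by 1.06.

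Among the 176 genes below both, 60 (34.1%) were higher in HE2 than in HE1 and 0 were lower in limma. The HE2 mean lay between those of HE1 and progenitors for 167 genes, and the median of HE2 minus HE1 was 0.887. Against progenitors 33 were lower in HE2 (0.622% of all genes) and against Flk+ cells 62 did (3.86%). Ifitm1 was at 12.83 and 12.3 in HE2, Emilin2 at 10.64 and 10.21, and Usp18 at 8.07 and 7.94, each above both HE1 arrays. The count of 290 fell to 0 without the second HE1 array, to 124 without the first, to 175 without the second progenitor array, and to 182 and 187 without the first and second Flk+ arrays. The count of 60 became 0 without the second HE1 array and 29 without the second progenitor array.

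The same measure was taken in the 6 Sp1-/- arrays, which had no part in the choice. There 501 of the 680 genes (73.7%) were above both populations and 0 were below both, where 2.34% of all genes were above. Of the 176 genes, 95 (54%) were below both and 0 above both, where 0.888% of all genes were below. On the same side of both populations, whatever the size, lay 665 and 170. The median difference of HE1 from the mean of the others was 1.8 in Sp1 +/+ and 2.02 in Sp1-/- for the genes above both. Cdh5 was at 9.22 and 9.61 in Sp1-/- Flk+ cells, 14.54 and 14.62 in HE1, and 9.12 and 9.61 in progenitors. Robo4 was at 9.62 and 9.59, then 13.18 and 13.4, then 6.71 and 6.79. Ifitm1 was at 15.39 and 15.0, then 11.1 and 10.42, then 15.51 and 15.39. The progenitor replicates of Sp1-/- cells lay closer together than those of Sp1 +/+ cells for these genes. The count of 501 was 327 without the first Sp1 +/+ HE1 array, where 547 genes were members, 290 without the second progenitor array, where 368 were, and 0 without the second HE1 array, where none was. The count of 95 was likewise 0 without the second Sp1 +/+ HE1 array, 35 without the second progenitor array, and 53 and 61 without the first and second Flk+ arrays. It was 62 without either the first or the second Sp1-/- progenitor array.

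Tested directly, the height of the HE1 peak, meaning HE1 minus the mean of Flk+ and progenitor cells, differed between genotypes at an adjusted p of 0.05 or less for 51 members. This height changes with the Flk+ and progenitor levels as well as with that of HE1. In Sp1-/- cells it was lower for 18 and higher for 28 of the genes above both, and lower for 4 and higher for 1 of the genes below both, where 0.378% of all genes were lower and 0.41% higher. Gstk1, a glutathione transferase, was at 10.56 and 10.35 in Sp1 +/+ Flk+ cells, 11.65 and 12.24 in HE1, and 10.9 and 10.84 in progenitors. In Sp1-/- cells it was at 9.72 and 9.35, then 8.27 and 8.29, then 9.23 and 9.19, so its peak was reversed there. Foxa2 was above both in Sp1 +/+ cells only, at 9.55 and 9.05 in Sp1-/- Flk+ cells and 8.58 and 7.54 in Sp1-/- HE1, but the difference in its peak did not pass (adjusted p = 0.114). Each peak is a difference within 1 slide, but slide and genotype cannot be told apart. The Sp1 +/+ values in this contrast also chose the members, which favours a lower peak in Sp1-/- cells for genes above both and a shallower dip for genes below both.

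**Figure D5:**
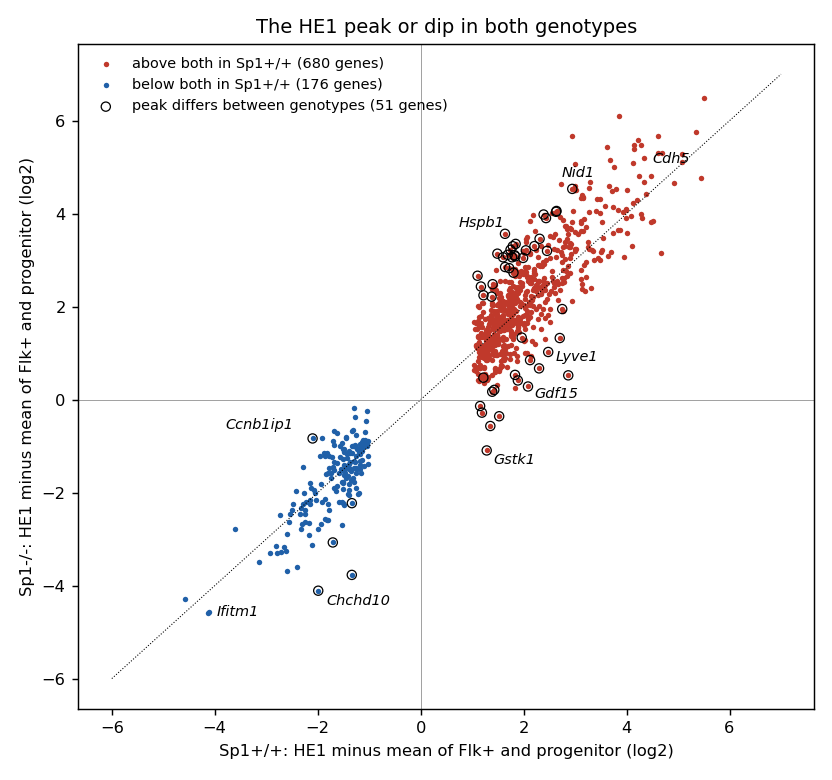
HE1 minus the mean of Flk+ and progenitor cells, in log2 units, in Sp1 +/+ cells (x axis) and Sp1-/- cells (y axis) for the 680 genes above both and 176 below both in Sp1 +/+ cells, with a dotted line where both are equal. Circles mark the 51 genes whose difference between genotypes passed; most genes follow the line, Gstk1 falls below 0 in Sp1-/- cells, and Nid1 and Hspb1 stand above the line.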

How the data were processed

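RNA of sorted mouse ES cell derivatives was labelled with Cy3 and hybridised to 1-colour Agilent arrays, read with Agilent Feature Extraction. The log2 values used for every result are those the authors deposited, made in limma. They equal, within 0.005, normexp background correction of the deposited median signal and background intensity with an offset of 50, followed by quantile normalization between arrays. The study's methods give an offset of 16, which differs from the deposited values by up to 1.63.

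Control spots were left out, outlier spots were set missing and replicate spots were averaged. Of 37932 target names, 20869 were matched to a gene symbol by RefSeq or Ensembl accession and 12 by symbol or synonym. The brightest probe stood for each gene, meaning a symbol or, where there was none, a target name. Genes below a log2 intensity of 6 on all 6 arrays were removed, leaving 36818, of which 19992 had a symbol. limma 3.58.1 in R 4.3.3 (lmFit and eBayes) was fitted to the 6 Sp1 +/+ arrays for the choice, to the 8 Sp1 +/+ arrays for HE2, to the 6 Sp1-/- arrays for the pattern there, and to 12 arrays for the difference between genotypes, which was called by adjusted p alone. All other calls also required 2-fold. P-values were adjusted over all 36818 genes, and genes with differences of opposite sign could not be called. "At least" marks a bound, used where no array of a group measured a probe above background. The script was tested on simulated data. The number of arrays limits the precision.

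The members and lists were chosen with earlier results of these data known. Named were Cdh5, the 4 sort genes, the 15 genes above both and 10 below both with the largest smaller difference, a symbol and no overlap of arrays, and up to 6 called members of each list, or the highest where none was called. Other genes named were chosen after their values were seen, and 1 counted gene is not reported by name here. Alternatives were the offset, the scanner's processed signal intensity scaled to the 75th percentile, the filter, the mean over probes, the arrays in the fit, the thresholds, a replicate block and leaving out each array. Replicate numbers were not taken to pair the arrays.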

Additional observations from a re-analysis of the deposited data

Results flagged for a closer look

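The height of the HE1 peak (HE1 minus the mean of Flk+ and progenitor cells, log2) differed between genotypes in limma for 16 genes examined singly, namely genes named by the rule, called genes of the lists and the 5 lowest and 5 highest differences among members. Col5a1 among them is not a member. A peak changes with the Flk+ and progenitor levels as well as with that of HE1. The Sp1 +/+ peaks also chose the members. Slide and genotype cannot be told apart. The values below are Sp1-/- minus Sp1 +/+ with the standard error (SE).

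In Sp1-/- cells the peak was lower for Gstk1 by a difference of -2.38 (SE 0.23, adjusted p = 0.00673), with a peak of 1.28 in Sp1 +/+ and -1.09 in Sp1-/- cells. For Bean1 the difference was -1.88 (adjusted p = 0.00757) and for Gdf15, a stress-induced TGF-beta family factor, -1.8 (adjusted p = 0.0292), which left a peak of 0.283 against 2.08. Slc1a2, a glutamate transporter, differed by -1.63 (adjusted p = 0.0137). Ocln, a tight junction protein, differed by -1.48 (adjusted p = 0.0268) and Lyve1 by -1.45 (adjusted p = 0.0258). Chchd10, a mitochondrial protein, was below both populations in Sp1 +/+ cells by a peak of -1.99 and lay lower still at -4.11 in Sp1-/- cells, a difference of -2.12 (adjusted p = 0.0214).

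In the other direction, Hspb1, a small heat shock protein, differed by 1.93 (adjusted p = 0.0482), Pkdcc by 1.65 (adjusted p = 0.0121) and Wipf3 by 1.59 (adjusted p = 0.0418). The matrix genes Nid1, Sparc and Col5a1 differed by 1.59 (adjusted p = 0.0277), 1.21 (adjusted p = 0.0377) and 1.04 (adjusted p = 0.0342). Dupd1 differed by 1.56 (adjusted p = 0.00863) and Ccn1 by 1.15 (adjusted p = 0.0306). For Ccn1 the mean HE1 level was 13.33 in Sp1 +/+ and 13.14 in Sp1-/- cells, while the progenitor level was 11.69 and 9.28. Ccnb1ip1, which was below both in Sp1 +/+ cells, had a peak of -0.835 in Sp1-/- cells against -2.1, a difference of 1.26 (adjusted p = 0.0165), and its HE1 level was not well above background in Sp1 +/+ cells. That level was 6.105 in Sp1 +/+ and 6.19 in Sp1-/- cells. Its Flk+ level was 8.27 and 6.925, and its progenitor level 8.14 and 7.125.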

How the results depend on the processing

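An adjusted p of 0.01 in place of 0.05 gave 242 genes above both and 56 below both, of which the Sp1-/- arrays repeated 160 and 20, with 29 lower and 14 higher in HE2 than in HE1. The scanner's processed signal gave 384 above both (310 of them among the 680) and 203 below both (97 of them among the 176), 273 repeated in Sp1-/- cells, 142 lower and 103 higher in HE2, and 1740 below the mean of both, with the median of all genes at -0.155 against Flk+ cells and -0.0809 against progenitors, where the deposited values gave -0.015 and -0.005. The causes were not tested. Leaving out 1 array gave 0 to 547 genes above both, 0 to 176 below both, 1204 to 1359 above the mean and 736 to 911 below it, 0 to 510 and 0 to 99 repeated in Sp1-/- cells, and 0 to 209 lower and 0 to 63 higher in HE2. With the replicate number as a block 594 genes were above both and 156 below both, with 244 lower and 57 higher in HE2. The block was not used because the deviations of same-numbered arrays did not correlate in every pair of populations: at -0.00121 for HE1 and Flk+, -0.0526 for HE1 and progenitor, -0.0502 for Flk+ and progenitor, -0.152 for HE2 and progenitor, 0.123 for HE2 and Flk+, and 0.501 for HE1 and HE2. Gapdh, near 0 in HE1 minus the mean of both, turned to -0.0014 with offset 16, -0.181 with the processed signal, and -0.187 as a mean over probes, and ranged from -0.01 to 0.015 when 1 array was left out, being -0.0075 without the first HE1 array. Lin28a turned to -0.0698 with the processed signal, Kit ranged from -0.174 without the first HE1 array to 0.551 without the second and was -0.0938 without the first Flk+ array, and Col1a1 ranged from -1.71 without the first HE1 array to 0.502 without the second. The 90 named genes gave 1137 comparisons with an alternative on the same side of the threshold, 289 that lost the call, 5 that gained it and 9 reversed. Probes not well above background carry only bounds.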

Other observations

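Gene families were counted by the stem of their symbols, after the values were seen and with no test. Among all genes with a symbol, 578 of 19992 were above both. Of 17 Klf genes, zinc finger factors of which several respond to flow, 6 were above both: Klf2, Klf4 and Klf6, already counted among the transcription factors, and Klf3, Klf7 and Klf14. Of 8 Gimap genes, small GTPases known from lymphocytes, 5 were above both, and of 8 Tnfaip genes, induced by tumor necrosis factor, also 5. Annexins gave 4 of 12, integrin alpha chains 4 of 11 and cavins, which coat caveolae, 3 of 4. Larger stems held few members, with 10 of 368 for Slc, 4 of 226 for Tmem and 3 of 358 for Zfp. H19, an imprinted non-coding RNA next to Igf2, was above Flk+ cells by 3.41 and above progenitors by 3.46 (adjusted p = 0.00713).

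Of the genes above both that no list held, Gap43, a growth cone protein, differed by 5.53 from Flk+ cells and by 3.84 from progenitors, and Dpysl3, a regulator of axon growth, by 5.02 and 3.55.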
